A study of Mus musculus with 186 samples.

Results

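The genes described here are 31 genes of the oligodendrocyte lineage and of myelin, the lipid-rich membrane that oligodendrocytes wrap around axons. They were taken by symbol from a table of 28338 gene symbols, and all 31 were found there. RNA was sequenced in bulk in 186 libraries from frozen, dissected mouse brain. The labels name 6 regions, written here as PFC (prefrontal cortex), SSC (somatosensory cortex), HP (hippocampus), STR (striatum), TH (thalamus) and SN (substantia nigra). They name ages of 4 and 12 weeks, and 3 genotypes of Akap11, the gene of an anchoring protein for protein kinase A: WT, the heterozygote Akap11 +/-, called HET, and the homozygote Akap11 -/-, called KO. Each of the 36 groups held 5 libraries, or 6 in PFC HET, SSC HET, HP WT, TH WT, SN WT and SN HET at 4 weeks. The labels give no strain, sex, treatment or details of the allele, and no group carries a further named allele or agent. They do not say whether libraries of the same number in different regions came from the same mouse, so p-values measure the spread between libraries.

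Oligodendrocyte precursors, which carry the receptor Pdgfra and the proteoglycan Cspg4, divide in the young and adult brain and mature through a newly formed stage, marked by Bcas1 and Enpp6, into myelinating cells. The transcription factors Olig1, Olig2, Sox10, Nkx6-2 and Myrf act in this course, and Sox10 and Myrf switch on genes of the myelin sheath. Compact myelin is held together by proteins such as Mbp and Mobp, while Mag faces the axon, Mog lies on the outer surface and Cldn11 forms the tight junctions between the layers. Ugt8a and Fa2h make the galactolipids of the membrane, and the connexins Gjb1 and Gjc3 couple its layers and the neighbouring glia. White matter tracts run densely through the midbrain and thalamus and thinly through the upper cortex.

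The genes lie on 15 chromosomes, with 4 of them on chromosome 3. Promoter sequences from RefSeq, on build GRCm38.p6, were found for 22 of the 31 genes. The 250 bases before the start are printed for 4 of them, chosen to show a gene that fell with age in every region (Cldn11), a gene of the newly formed stage that did so too (Enpp6), a gene that fell with age in no region (Ermn), and a sheath gene with a MYRF-type match (Mog). Each runs 5′ to 3′ on the gene's own strand, and capitals mark a match to a motif on either strand. Ermn is at chr2:58052865-58053114 on the minus strand, Cldn11 at chr3:31149670-31149919 on the plus strand, Enpp6 at chr8:46986637-46986886 on the plus strand and Mog at chr17:37023399-37023648 on the minus strand.
Ermn: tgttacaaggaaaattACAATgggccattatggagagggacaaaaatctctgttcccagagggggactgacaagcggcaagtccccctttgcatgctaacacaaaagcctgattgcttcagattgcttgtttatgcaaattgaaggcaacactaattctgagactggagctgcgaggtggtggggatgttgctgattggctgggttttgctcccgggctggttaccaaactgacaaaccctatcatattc
Cldn11: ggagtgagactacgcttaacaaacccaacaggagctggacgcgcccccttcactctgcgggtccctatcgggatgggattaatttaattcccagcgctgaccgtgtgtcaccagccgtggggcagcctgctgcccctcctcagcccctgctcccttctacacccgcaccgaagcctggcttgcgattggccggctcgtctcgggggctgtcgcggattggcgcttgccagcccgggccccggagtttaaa
Enpp6: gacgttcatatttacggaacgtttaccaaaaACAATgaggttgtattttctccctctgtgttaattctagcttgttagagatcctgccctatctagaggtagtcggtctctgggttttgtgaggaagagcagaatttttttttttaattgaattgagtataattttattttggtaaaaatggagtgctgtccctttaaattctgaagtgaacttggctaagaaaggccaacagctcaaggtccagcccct
Mog: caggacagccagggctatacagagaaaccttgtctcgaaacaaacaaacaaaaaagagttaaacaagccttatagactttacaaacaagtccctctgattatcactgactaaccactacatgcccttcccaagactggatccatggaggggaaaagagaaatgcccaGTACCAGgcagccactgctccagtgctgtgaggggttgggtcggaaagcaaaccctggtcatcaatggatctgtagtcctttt
The SOX-type letters ACAAT or ACAAAG were found in 14 of the 28 promoters of these 22 genes (50.0%) and in 38.8% of the 32851 promoters of the same table and length. Mag, Tspan2 and Gjb1 have more than 1 promoter there. The MYRF-type letters CTGGCAC or CTGGTAC were found in 4 of 28 (14.3%) against 5.93% of all promoters. By gene this was 3 of 22 (13.6%), because overlapping windows of Mag were counted separately. An OLIG-type E-box (CAGCTG or CATATG) was found in 4 of 28 against 16.1%, and the TATA letters TATAAA in 3 of 28 against 12.4%. No motif contains another. These matches describe the letters in the windows, and no binding was measured.

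Totals ranged from 20.8 to 73.3 M counts per library. Akap11 was lower in every KO library than in every other library of its region and age, in all 12 combinations, at 11.7 to 24.5 CPM (counts per M counts of the library, after TMM scaling) in KO and 44.8 or more elsewhere. Markers of striatal projection neurons were higher in all 30 STR libraries than anywhere else, and markers of midbrain dopamine neurons in all 32 SN libraries, while thalamic markers were above all others in 28 of 31 TH libraries. At 4 weeks, 11 libraries stand apart in region markers: STR WT 92, KO 51, KO 161 and KO 163, TH WT 913, WT 914 and WT 23, and SN WT 42, WT 92, KO 44 and KO 91. A set of 16 libraries at 4 weeks is set apart by its rounding: 5.55% or less of its non-zero values are whole, while in each remaining library 17.3% or more are. No source used here says why. SN WT 92 recurs in the results below. Of the 6 SN WT libraries at 4 weeks it held the highest levels of Mbp, Mag, Cldn11, Opalin, Olig1 and Trf. Its levels of Pdgfra and Enpp6 were the lowest of those 6. Its 44.8 CPM of Akap11 was the lowest of all libraries labelled WT or HET, and it was kept under its label. Where leaving any of these libraries out ended a call or moved a value of a single gene given below by over 1.5 times, the value without them follows.

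All levels below are TMM-scaled CPM, on a single scale over all libraries. To compare genes, levels were divided here by the length in kb of the longest annotated transcript, which need not be the one expressed. On that scale Mbp was the most abundant of the 31 genes, at a mean of 666 CPM per kb over the WT libraries. Mobp followed at 339, Cnp, an enzyme of the sheath's cytoplasmic channels, at 286, and Trf, the iron carrier transferrin, at 232. Among the transcription factors Olig1 was the most abundant at 73.1 CPM per kb. Bcas1 reached 49.7, the receptor Gpr37 21.6 and Pdgfra 7.75 CPM per kb. Enpp6 and Cspg4 lay lowest of the genes named in this paragraph, at 2.96 and 2.51 CPM per kb.

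Nearly all of these genes differed in level between regions. In WT mice at 4 weeks the 31 genes together took a median of 0.160% of all counts in PFC, 0.339% in SSC, 1.01% in HP, 1.12% in STR, 1.5% in TH and 2.66% in SN. At 12 weeks the shares were 0.128%, 0.248%, 0.641%, 0.622%, 1.01% and 1.34%, with HP and STR close to each other. In bulk tissue, fewer oligodendrocytes and less RNA per oligodendrocyte cannot be told apart. The rising order PFC, SSC, HP, STR, TH, SN held for the mean levels of 25 of the 31 genes at 4 weeks and 23 at 12 weeks. Neighbours in this order often overlapped: for most genes 2 or 3 of the 5 neighbouring pairs of regions shared part of their range.

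**Figure D1:**
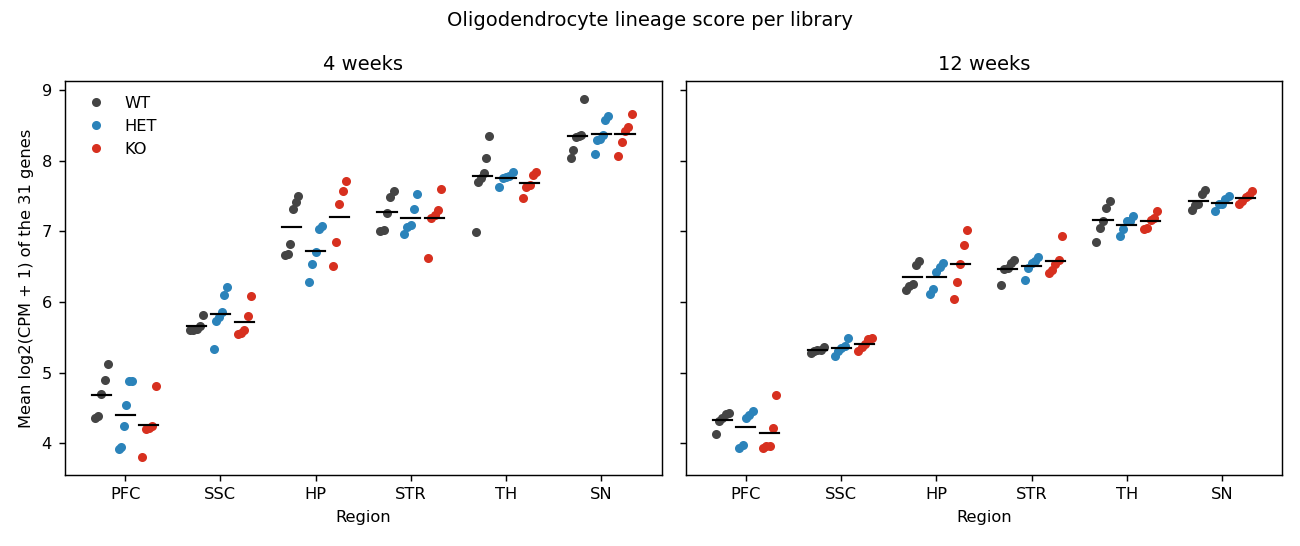
Mean log2(CPM + 1) of the 31 genes in each of the 186 libraries, by region along the x axis and by genotype in colour, with a panel for each age and a bar at each group mean. In WT the mean rises from 4.69 in PFC to 8.35 in SN at 4 weeks and from 4.33 to 7.43 at 12 weeks, and the points of the 3 genotypes mix within each region.

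Each region was then compared with the mean of the other 5 in WT libraries, in a single edgeR fit per age. At 4 weeks 152 of the 186 pairs of gene and region passed an adjusted p of 0.05 (93 higher, 59 lower), where 46.3% of all tests did so. At 12 weeks 164 passed (100 higher, 64 lower), against 61.6% of all tests. In PFC 29 of the 31 genes were lower at either age, against a background of 21.3% of genes lower at 4 weeks and 27.8% at 12 weeks. In SSC 30 were lower at 4 weeks (background 19%) and 31 at 12 weeks (27.7%). In TH 30 genes were higher at either age (background 25.9% and 34.1%), and in SN 30 and then 31 were higher (31.4% and 35.7%). STR stood between, with 23 and 24 genes higher (26.8% and 32.5%), and 3 lower at 12 weeks. In HP 10 genes were higher at 4 weeks (19.7%) and 14 at 12 weeks (27.8%). The HP counts, of either direction, rested on single libraries: the 10 at 4 weeks became 6 without HP WT 914, 15 without SN WT 92 and 17 without the libraries that stand apart, and the 15 at 12 weeks became 7 without HP WT 5.

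Gjb1, the connexin of the outer sheath layers, had the widest range between regions of the 31 genes. In PFC its WT levels were 3.74, 2.49, 1.56, 1.44 and 1.36 CPM at 4 weeks and 1.91, 1.72, 1.66, 1.32 and 1.16 CPM at 12 weeks. In SN they ran from 58.2 through a median of 69.3 to 153 CPM at 4 weeks, with SN WT 92 highest, and were 58.3, 49.4, 43.0, 39.3 and 36.9 CPM at 12 weeks. No SN library overlapped a PFC library, and the means differed by 38.5-fold at 4 weeks and 29.2-fold at 12 weeks. Gjb1 was lower in PFC than in the mean of the other regions by a log2 difference of -3.63 (SE 0.29, adjusted p = 2.54e-11) at 4 weeks and -3.69 (SE 0.18, adjusted p = 1.39e-16) at 12 weeks. It was higher in SN by 2.67 (SE 0.17, adjusted p = 2.04e-13) and 2.16 (SE 0.11, adjusted p = 2.53e-16). In TH, where WT levels were 26.6 to 68.0 CPM at 4 weeks (median 47.5) and 52.8, 42.6, 41.3, 33.0 and 25.7 CPM at 12 weeks, Gjb1 was higher by 1.86 (SE 0.18, adjusted p = 7.5e-10) and 1.90 (SE 0.11, adjusted p = 7.41e-15). The TH and SN libraries overlapped at both ages.

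Mbp, the main protein of compact myelin, spanned a mean of 454 CPM in PFC to 11645 CPM in SN at 4 weeks, a 25.7-fold range. At 12 weeks it spanned 296 to 4252 CPM, or 14.4-fold. In SN its log2 difference from the other regions was 2.39 (SE 0.21, adjusted p = 8.84e-11) at 4 weeks and 1.90 (SE 0.09, adjusted p = 1.26e-17) at 12 weeks. Mobp and Mog differed between their lowest and highest regions by 35.7-fold and 32.4-fold at 4 weeks. The transcription factor Olig2 had a smaller range of 5.61-fold at 4 weeks and 3.66-fold at 12 weeks, and Car2, a carbonic anhydrase, one of 5.87-fold and 4.36-fold. Trf ran from 31 to 71.2 CPM in PFC and from 1213 to 4607 CPM in SN at 4 weeks, with no overlap and a 38.1-fold difference of means.

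**Figure D2:**
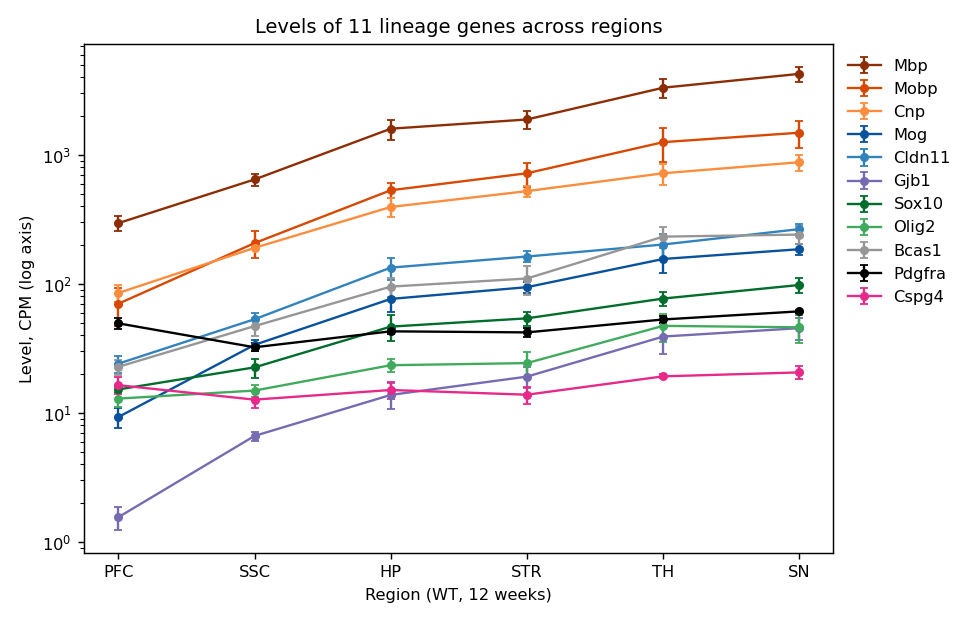
Mean CPM (log axis) of 11 of the genes in WT libraries at 12 weeks, by region, with error bars of 1 SD over 5 libraries. Most lines climb from PFC to SN, and those of the precursor genes stay nearly flat.

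In STR the gene furthest above the other regions at 4 weeks was Mal, a proteolipid of compact myelin. Its STR WT levels were 1177, 1023, 933, 729 and 690.1 CPM, higher by a log2 difference of 1.08 (SE 0.19, adjusted p = 2.09e-05). At 12 weeks it was Enpp6, a choline phosphodiesterase of newly formed cells, at 14, 11.1, 10.5, 10.3 and 9.69 CPM (log2 difference 0.94, SE 0.13, adjusted p = 3.61e-07). Enpp6 was also the gene furthest below the other regions in SSC. There it read 5.13, 5.09, 5.05, 4.43 and 3.50 CPM at 4 weeks (log2 difference -1.97, SE 0.23, adjusted p = 2.59e-08) and 2.95, 2.94, 2.13, 1.84 and 1.81 CPM at 12 weeks (-1.76, SE 0.17, adjusted p = 3.37e-10). All SSC values of Enpp6 were below all STR values of the same age.

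The precursor genes did not follow this gradient. Pdgfra, the receptor for platelet-derived growth factor A, differed by 1.62-fold between its lowest and highest region at 4 weeks and by 1.90-fold at 12 weeks, and Cspg4 by 1.56-fold and 1.63-fold. Pdgfra at 12 weeks was 53.4, 53.3, 52.0, 45.1 and 43.5 CPM in PFC, the region lowest in sheath genes, and 63.4, 62.5, 62.2, 59.9 and 58.5 CPM in SN, the highest. PFC and SN did not overlap, but the PFC values overlapped those of TH, at 58.0, 54.1, 52.1, 51.7 and 49.2 CPM. The lowest region was SSC, at 35.2, 33.7, 31.9, 31.3 and 29.2 CPM. At 12 weeks PFC lay above the mean of the other regions in Pdgfra, by 0.12 on the log2 scale (SE 0.05, adjusted p = 0.0378), and HP below it, by a log2 difference of -0.12 (SE 0.05, adjusted p = 0.0478). The HP call was lost with other size factors (adjusted p = 0.0688). Leaving out single libraries ended the PFC call in 16 of 30 cases and the HP call in 24 of 30.

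Enpp2, an enzyme that makes lysophosphatidic acid and is expressed by oligodendrocytes and by the choroid plexus, had its highest mean in HP at both ages, though the HP and SN libraries overlapped. Its HP WT levels were 1279, 1189, 489, 372, 308 and 262 CPM at 4 weeks and 1746, 1616, 1427, 655 and 482 CPM at 12 weeks. The log2 difference from the other regions was 0.90 (SE 0.20, adjusted p = 0.000814) at 4 weeks and 2.11 (SE 0.14, adjusted p = 2.51e-13) at 12 weeks. In STR at 12 weeks Enpp2 was 242, 226, 225, 203 and 175 CPM, below the other regions by a log2 difference of -0.84 (SE 0.18, adjusted p = 0.000135), with HP in that mean. Ttr, the carrier transthyretin that defines choroid plexus epithelium, was 1854, 1554, 594, 479.8, 84.8 and 0.394 CPM in the HP WT libraries at 4 weeks and 3292, 3122, 2799.8, 1154 and 555 CPM at 12 weeks. The same HP libraries were highest in both genes, WT 914 and WT 42 at 4 weeks and WT 4, WT 3 and WT 2 at 12 weeks. In WT libraries of the other regions Ttr was at most 28.3 CPM, in SN WT 92. All 7 choroid plexus markers examined were higher in HP than in the other regions at both ages, and their mean log2(CPM + 1) ran from 1.18 to 6.37 over the HP libraries and reached at most 1.64 elsewhere. The part of choroid plexus RNA in the HP level of Enpp2 was not tested.

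**Figure D3:**
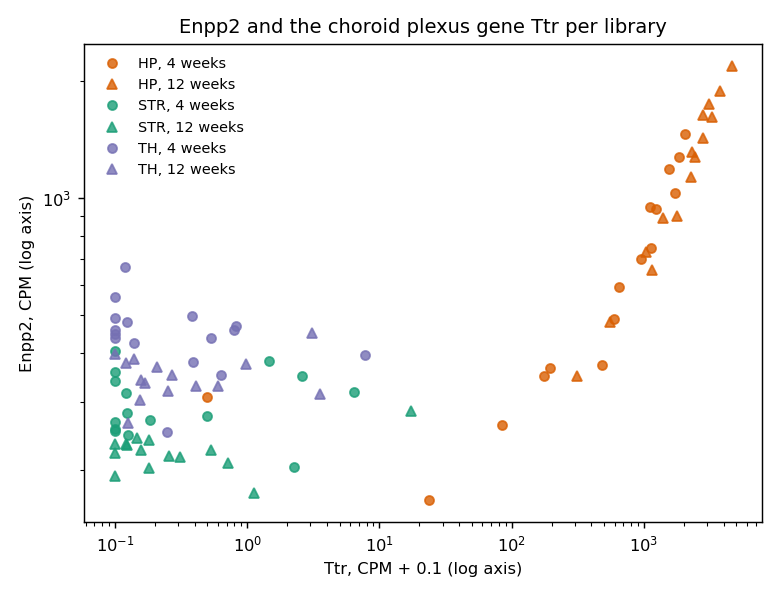
Enpp2 against Ttr, both in CPM on log axes, for each HP, STR and TH library. Within HP both genes are high in the same libraries and low in the same libraries, and the STR and TH libraries hold little Ttr.

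Between 4 and 12 weeks most of these genes fell in WT mice. Of the 186 pairs of gene and region, 116 were lower at 12 weeks (background 11.4% of all tests lower) and 1 was higher (background 9.21% higher). By region, 7 of the 31 genes fell in PFC (background 10.2%), 16 in SSC (13.7%), 21 in HP (10.6%), 22 in STR (9.41%), 23 in TH (12.6%) and 27 in SN (11.8%). The 8 calls in PFC, of either direction, became 4 without PFC WT 23 at 4 weeks. The 23 calls in TH became 16 without TH WT 914 and 28 without TH WT 913, both at 4 weeks. The median log2 change over all 31 genes was -0.43 in PFC, -0.31 in SSC, -0.71 in HP, -0.69 in STR, -0.56 in TH and -0.93 in SN (-0.72 in SN without the libraries that stand apart), while the median over all genes tested was between -0.02 and 0.02. The same contrast gave 106 lower and 1 higher in HET (background 8.32% and 7.09%) and 106 lower and 2 higher in KO (10.1% and 8.77%). In SN of HET, 2 of 3 Schwann cell markers were lower at 12 weeks too. Of the 117 calls in WT, 94 were kept whichever single library was left out and 108 without the libraries of few whole numbers. In STR, TH and SN, 69 of 72 were kept without the libraries that stand apart, and those lost were Mbp and Gpr37 in TH and Aspa in SN. The libraries of the 2 ages are separate sets, with other library names and none of the 16 libraries of few whole numbers at 12 weeks, so age and library batch cannot be told apart.

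**Figure D4:**
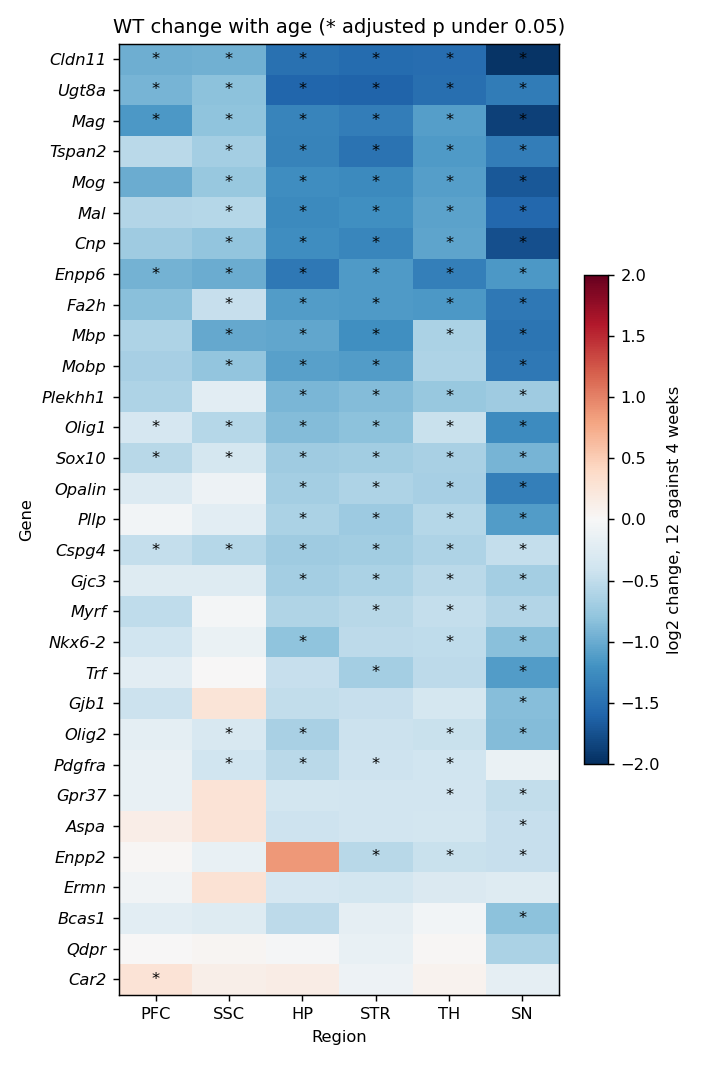
Log2 change from 4 to 12 weeks in WT for each of the 31 genes (rows, by median change over the regions) in each region (columns), with a star where the adjusted p is under 0.05. Nearly all starred cells are negative, and the exception is Car2 in PFC.

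By role, the 11 structural genes of the sheath fell in 49 of 66 pairs of gene and region, with a median log2 change of -1.03. The 5 transcription factors fell in 22 of 30 pairs (median -0.55), the 2 precursor genes in 10 of 12 (median -0.47) and the 2 genes of newly formed cells in 7 of 12 (median -0.88). The 4 junction, receptor and cytoskeletal genes fell in 11 of 24 (median -0.47), and the 7 lipid, metabolic and transport genes in 17 of 42, with 1 rise (median -0.43). Lower in all 6 regions were Cldn11, Mag, Ugt8a, Enpp6, Sox10, Olig1 and Cspg4, and of these Enpp6 alone kept all 6 calls whichever library was left out. Lower in 5 were Mbp, Cnp, Mal, Mog, Fa2h and the tetraspanin Tspan2. In 4 regions Mobp, Opalin, Pllp, Plekhh1, Gjc3, Olig2 and Pdgfra fell, in 3 Enpp2, Myrf and Nkx6-2, and in 2 Gpr37 and Trf. Bcas1, Gjb1 and Aspa, which breaks down N-acetylaspartate, fell in SN alone among the calls. Ermn, a cytoskeletal protein of late myelination, and Qdpr, an enzyme of tetrahydrobiopterin recycling, passed in no region.

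Cldn11, at chr3:31149920-31164324 on the plus strand, fell in all 6 regions. In STR WT mice it went from 645, 527, 515, 368 and 364 CPM at 4 weeks to 175, 174, 169, 162 and 136 CPM at 12 weeks, a log2 change of -1.54 (SE 0.18, adjusted p = 7.7e-07) with no overlap. In TH it went from 303 to 907 CPM (median 559.8) to 248, 239, 201, 181 and 142 CPM, again without overlap (log2 change -1.52, SE 0.17, adjusted p = 2.72e-07). In HP it went from 263 to 488 CPM (median 383) to 164, 156, 132, 111 and 106 CPM (-1.49, SE 0.26, adjusted p = 0.000229). The largest change of this gene was in SN, from 2009, 1029, 892, 812, 764 and 647 CPM to 289.9, 283, 264, 263 and 229 CPM (-1.96, SE 0.21, adjusted p = 1.85e-07), and without the libraries that stand apart it was -1.61. In PFC it went from 68.9, 55.0, 43.5, 35.6 and 34.3 CPM to 27.9, 26.4, 25.9, 20.8 and 19.5 CPM (-0.97, SE 0.29, adjusted p = 0.0177). The PFC call of Cldn11 was lost without PFC WT 92 at 4 weeks (adjusted p = 0.0619). The PFC change of Cldn11 was -0.82 in HET (adjusted p = 0.048) and -0.46 in KO, where it was not called (adjusted p = 0.354).

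Ugt8a, which makes galactosylceramide and lies at chr3:125865271-125938619 on the minus strand, changed nearly as much. In STR its levels were 248, 239, 197, 171 and 159.9 CPM at 4 weeks and 75.3, 68.4, 66.8, 61.9 and 56.7 CPM at 12 weeks (log2 change -1.60, SE 0.17, adjusted p = 1.66e-07). In HP they were 113 to 219.5 CPM (median 148), then 68.9, 58.5, 49.9, 42.7 and 42.2 CPM (-1.59, SE 0.26, adjusted p = 9.14e-05). Neither region had overlapping ages. In TH Ugt8a was 124 to 367 CPM (median 262) and then 119.9, 104, 85.7, 84.4 and 71.4 CPM (-1.51, SE 0.16, adjusted p = 1.53e-07), with the lowest library at 4 weeks, TH WT 913, just above the highest at 12 weeks. For most of the 31 genes the ages overlapped in TH. All 12-week WT libraries lay below all 4-week ones for 4 genes in TH, against 23 in STR and 21 in SN. The same share over all genes was not counted.

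Mag, the glycoprotein of the layer next to the axon, was the gene with the largest fall in PFC. Its PFC levels were 97.8, 84.1, 76.6, 46.1 and 44.2 CPM at 4 weeks and 35.9, 34.7, 31.7, 30 and 24.0 CPM at 12 weeks, without overlap (log2 change -1.15, SE 0.38, adjusted p = 0.0339). This call was lost without any of PFC WT 23, WT 92 or WT 142 at 4 weeks or WT 1, WT 2, WT 3 or WT 4 at 12 weeks (adjusted p of 0.052 to 0.085). The PFC change of Mag was not called in HET (-0.77, adjusted p = 0.17) or KO (-0.44, adjusted p = 0.538). In SN Mag went from 5054, 1546, 1517, 1499.6, 1215 and 1089.6 CPM to 633, 597, 512, 511 and 506 CPM (-1.86, SE 0.26, adjusted p = 1.5e-05), and by -1.28 without the libraries that stand apart. All SN libraries at 12 weeks were below all at 4 weeks, with or without SN WT 92, the highest.

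In SSC the largest falls were in Mbp and Enpp6. Mbp went from 1828, 1772, 1054, 993 and 913 CPM to 719, 691, 663, 606 and 549 CPM, without overlap (log2 change -1.02, SE 0.23, adjusted p = 0.00149). Without the libraries of few whole numbers this change was -0.60 (SE 0.16, adjusted p = 0.00934). Enpp6 changed by -0.99 (SE 0.21, adjusted p = 0.00078), with all SSC values at 12 weeks, given above, below all at 4 weeks. Mbp in SN read 22606, 15589, 9787, 7767, 7366 and 6756 CPM at 4 weeks and 5037, 4385, 4368, 3786 and 3685 CPM at 12 weeks (-1.46, SE 0.27, adjusted p = 0.000335). The pair of highest SN libraries at 4 weeks, WT 92 and WT 914, both belong to the libraries of few whole numbers, and without those the SN change of Mbp was -0.89 (SE 0.20, adjusted p = 0.00206). In PFC the Mbp values overlapped, at 715, 445, 427, 418 and 264 CPM and then 321, 319, 307, 306 and 227 CPM, and the log2 change of -0.61 (SE 0.35) did not pass (adjusted p = 0.237).

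Of the 31 genes Car2 was the only one called higher. In PFC it went from 60.3, 59.0, 54.2, 52.1 and 51.9 CPM to 77.3, 70.0, 63.6, 63.4 and 58.2 CPM, with an overlap (log2 change 0.27, SE 0.09, adjusted p = 0.0271). It was also higher in PFC of HET (0.33, adjusted p = 0.00567) and KO (0.34, adjusted p = 0.00949), but in WT the call was lost with other size factors (adjusted p = 0.0527) and without any of WT 913, WT 23 or WT 142 at 4 weeks or WT 1 or WT 5 at 12 weeks. Among the genes that passed in no region, Qdpr in STR was 227, 185, 183, 136 and 128 CPM at 4 weeks and 171, 163, 149, 144 and 134 CPM at 12 weeks, with overlapping ages. Ermn in SSC was 22.2, 21, 20.3, 20.1 and 17.7 CPM and then 28.4, 27.5, 23.6, 22.9 and 20.8 CPM, with a log2 change of 0.29 (adjusted p = 0.143). Enpp2 fell in STR, TH and SN by log2 changes of -0.55, -0.44 and -0.47, while its change in HP was 0.87 (SE 0.43, adjusted p = 0.174), beside the Ttr levels given above.

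Of the most abundant gene in each remaining role, Olig1 fell in SN from 937, 464, 387, 383, 337 and 292 CPM to 264, 203, 174, 174 and 172 CPM (log2 change -1.25, SE 0.20, adjusted p = 5.9e-05). It fell in PFC from 61.0, 60.2, 57.3, 53.5 and 49.8 CPM to 55.8, 45.2, 44.6, 39.1 and 38.9 CPM (-0.33, SE 0.11, adjusted p = 0.0283), where a single 12-week library overlapped the 4-week range. The PFC call was lost without WT 23 or WT 142 at 4 weeks or WT 3 or WT 4 at 12 weeks (adjusted p of 0.0637 to 0.0721). Pdgfra fell in HP from 57.4 to 71.3 CPM (median 61.3) to 44.6, 44.1, 43.3, 43.2 and 39.3 CPM (-0.54, SE 0.07, adjusted p = 1.07e-05), without overlap. In SN, where Pdgfra was 74.5, 74.4, 74.3, 72.8, 69.6 and 35.3 CPM at 4 weeks and SN WT 92 was the lowest, its change of -0.13 (SE 0.15) did not pass (adjusted p = 0.567). Without SN WT 92 it was -0.25 (SE 0.12, adjusted p = 0.128). Trf, which brings iron to the sheath, fell in SN from 4607, 1808, 1564, 1491, 1278 and 1213 CPM to 1051, 1015, 895, 869 and 811 CPM (-1.11, SE 0.23, adjusted p = 0.00143), without overlap. The SN change of Trf was -0.66 without SN WT 92 (SE 0.13, adjusted p = 0.000694) and -0.57 without the libraries of few whole numbers. In PFC the change of Trf was -0.21 (SE 0.27, adjusted p = 0.63), with overlapping ages, and -0.35 without those libraries (adjusted p = 0.395). Bcas1 in SN went from 784, 487, 343, 311, 306 and 299 CPM to 287, 272, 234, 223 and 191 CPM (-0.82, SE 0.21, adjusted p = 0.00867). It was -0.53 without SN WT 92 (adjusted p = 0.0272), and without the libraries of few whole numbers it was -0.37 and not called (adjusted p = 0.0960). Gpr37, a receptor of maturing oligodendrocytes, went in SN from 276, 276, 264, 245, 229 and 225 CPM to 201, 194, 178, 169 and 164 CPM (-0.49, SE 0.10, adjusted p = 0.00091), without overlap.

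Other genes of the lineage, from lists that hold none of the 31, moved in the same direction. Of 66 pairs of gene and region for 11 further genes of precursors and early oligodendrocytes, 39 were lower at 12 weeks and 1 higher (C1ql1 in SN). Of 125 pairs for 21 further genes of mature oligodendrocytes, 59 were lower and 2 higher (Apod and Evi2a in SSC). Over all tests 11.4% were lower and 9.21% higher. Gpr17, a receptor of cells committed to become oligodendrocytes, was called lower in all 6 regions, from -0.85 on the log2 scale in PFC (adjusted p = 2.2e-08) to -1.67 in SN (adjusted p = 3.37e-12). Its STR WT levels were 157, 157, 136, 131 and 119 CPM at 4 weeks and 66.5, 65.2, 59.2, 56.7 and 52.9 CPM at 12 weeks, without overlap. Gsn, the actin-severing protein gelsolin of myelinating cells, was also lower in all 6, by -2.05 in STR (adjusted p = 7.33e-09) and -2.66 in SN (adjusted p = 2.02e-06). The SN values of Gsn at 4 weeks were 2111, 609, 566, 542, 455 and 377 CPM with SN WT 92 highest, all above the 138, 136, 128, 109.7 and 109 CPM at 12 weeks.

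Whether the age change itself differed between regions was tested in WT as each region's change minus the mean change of the other 5. Only 2 of the 186 pairs passed, both in SN and both towards a larger fall, where 8.22% of all genes passed in SN and 1.93% over all regions. Opalin, a transmembrane protein of myelin, had an excess of -0.90 on the log2 scale in SN (SE 0.27, adjusted p = 0.0309), and Olig1 one of -0.64 (SE 0.21, adjusted p = 0.0462). Opalin in SN was 331, 111, 100.1, 88.6, 83.4 and 79.3 CPM at 4 weeks and 61.6, 59.4, 47.9, 46.1 and 43.1 CPM at 12 weeks. The ages did not overlap, and SN WT 92 held the 331 CPM. Without that library the excess was -0.38 for Opalin (adjusted p = 0.415) and -0.31 for Olig1 (adjusted p = 0.425). Leaving out single libraries ended the call of Opalin in 4 of 63 cases and that of Olig1 in 32. At an unadjusted p under 0.05 there were 39 pairs. Leaving out single libraries moved the number called between 0 (without SN WT 2, WT 4 or WT 5 at 12 weeks) and 9 (without SN WT 913 at 4 weeks), and DESeq2 called 7.

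Loss of Akap11 was not accompanied by a called change in any of the 31 genes. Across 6 regions, 0 of 186 pairs of gene and region passed in KO against WT at 4 weeks (background 0.555% of all tests) and 0 at 12 weeks (background 0.731%). In HET against WT, 0 passed at 4 weeks (background 0.00418%) and 0 at 12 weeks (background 0.00622%). The background was highest in STR, where 3.35% of genes at 4 weeks and 4.42% at 12 weeks passed in KO. At an unadjusted p under 0.05 there were 9 and 11 pairs in KO and 14 and 2 in HET at the respective ages, and DESeq2 also called 0. The interval of the log2 difference lay within -1 and 1 for 164 and 183 of the 186 pairs in KO and for 162 and 185 in HET. The wide intervals were unevenly spread over the regions. In PFC at 4 weeks only 14 of the 31 genes in KO and 19 in HET had an interval within those bounds, and in HP at 4 weeks 24 in HET.

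**Figure D5:**
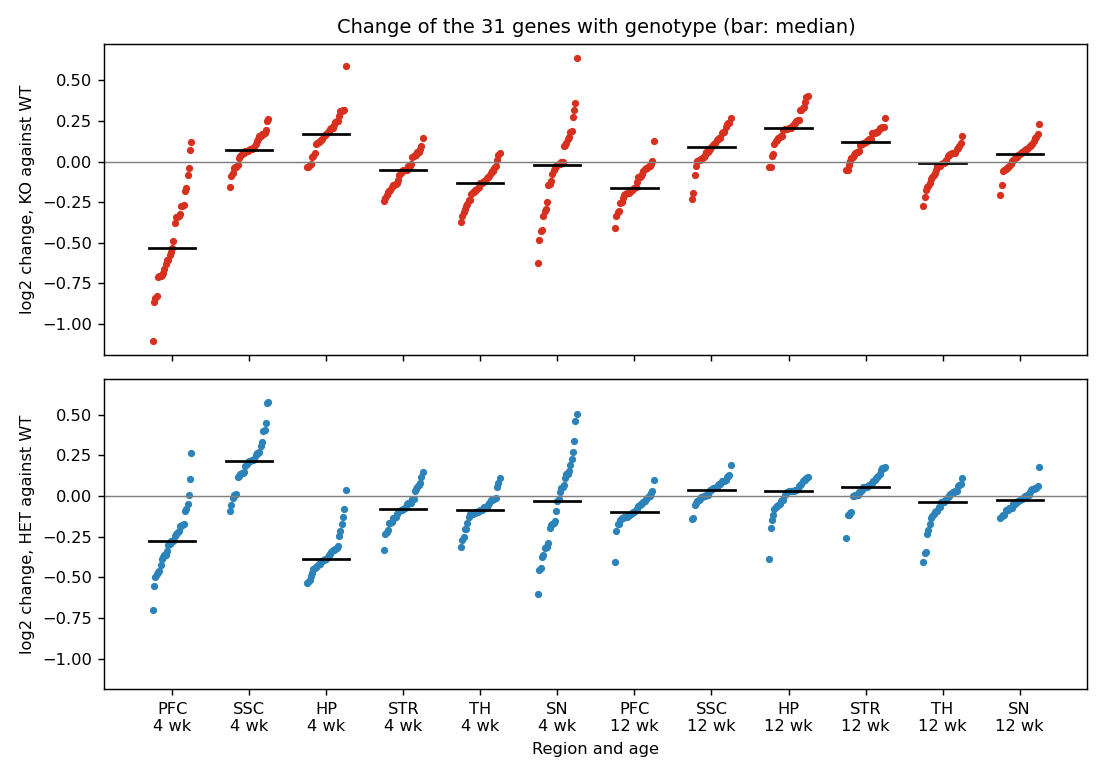
Log2 difference of each of the 31 genes from WT in KO and HET, by region and age, with a bar at the median. The points centre near 0 in most panels, and the lowest median is that of KO in PFC at 4 weeks, at -0.53.

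In STR, the region with the most changed genes in KO, the medians over the 31 genes were -0.05 at 4 weeks and 0.12 at 12 weeks. Mbp in STR at 12 weeks was 2133, 2049.8, 2025, 1810.1 and 1398 CPM in WT, 2391, 1820.2, 1561, 1524 and 1503 CPM in HET and 2644, 1814, 1807, 1733 and 1677 CPM in KO, and the 3 genotypes overlapped. Its KO difference was 0.03 (SE 0.15, 95% interval -0.28 to 0.34, adjusted p = 0.969). At 4 weeks Mbp was 6825, 5224, 4916, 3110.4 and 2490.0 CPM in WT and 6437, 3797, 3542, 2800.2 and 2689.9 CPM in KO, which also overlapped (log2 difference -0.22, SE 0.29, adjusted p = 0.751). That difference was -0.40 without the libraries that stand apart (SE 0.37, adjusted p = 0.603) and -0.07 with the set of few whole numbers as a term in the fit (SE 0.28, adjusted p = 0.918). The smallest adjusted p of KO at 12 weeks was that of Ugt8a in STR, with a log2 difference of 0.21 (SE 0.10, adjusted p = 0.303).

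PFC had the lowest KO medians at both ages. At 4 weeks 29 of the 31 genes had a KO difference below 0, with a median of -0.53 where that over all genes was 0.01, and 28 had a HET difference below 0, with a median of -0.28. Mbp in PFC was 715, 445, 427, 418 and 264 CPM in WT, 578, 255, 215, 212 and 137 CPM in KO, and 146 to 594 CPM in HET with a median of 280.3 CPM. The highest KO library, KO 44, lay within the WT range, and the other 4 KO libraries lay below all 5 WT libraries. The KO difference of Mbp was -0.70 (SE 0.38, 95% interval -1.50 to 0.10, adjusted p = 0.377). Nkx6-2, a homeodomain factor, read 2.43, 2.25, 2.13, 1.42 and 1.24 CPM in WT and 1.89, 0.773, 0.731, 0.707 and 0.301 CPM in KO (-1.10, SE 0.47, adjusted p = 0.296), with KO 44 again the only KO library inside the WT range. Qdpr had the smallest adjusted p of this comparison, at 74.5, 68.8, 64.7, 62.1 and 55.1 CPM in WT and 61.2, 52.8, 48.6, 48.0 and 46.4 CPM in KO (-0.34, SE 0.11, adjusted p = 0.222). Olig1 at 58.4, 45.9, 45.5, 43.4 and 39.7 CPM in KO lay below all the WT values given above in 4 of 5 libraries (-0.28, SE 0.10, adjusted p = 0.249). Without KO 44 the difference of Olig1 became -0.37 (SE 0.09, adjusted p = 0.0488), the only call among these comparisons under any alternative run.

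Beside these PFC values at 4 weeks, the further mature oligodendrocyte genes had a median KO difference of -0.49 with 0 of 20 called, the markers of cortical and hippocampal excitatory neurons one of -0.34 and those of astrocytes one of 0.24, with 0 of 6 and 0 of 10 called. Their part in the result was not tested. At 12 weeks the PFC median in KO was -0.16, with 29 of the 31 genes below 0, and -0.39 without KO 2. In HP the HET median at 4 weeks was -0.39 with 30 genes below 0, while the KO medians were 0.17 at 4 weeks and 0.20 at 12 weeks. Mbp in HP at 4 weeks was 1841 to 5422 CPM in WT (median 3116), 3054, 2809, 2637, 1705 and 1605 CPM in HET and 5857, 4705, 3882, 2396 and 2001 CPM in KO, and all 3 genotypes overlapped. In SSC the HET median was 0.22 at 4 weeks, and in TH the medians were -0.13 in KO and -0.09 in HET.

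In SN at 4 weeks the KO median was -0.02, and single genes differed more. Enpp6 was 51.7, 42.7, 40.2, 35.1, 33.6 and 19.3 CPM in WT and 69.6, 67.4, 61.7, 54.2 and 34.5 CPM in KO (log2 difference 0.64, SE 0.25, adjusted p = 0.643). The lowest WT value was that of SN WT 92, and the ranges overlapped through 1 KO library. Qdpr was 1293 CPM in SN WT 92 and 335 to 492 CPM in the other WT libraries, against 457, 347, 340.5, 314 and 300.4 CPM in KO (-0.63, SE 0.31, adjusted p = 0.643). Without SN WT 92 the difference of Qdpr was -0.12 (SE 0.14, adjusted p = 0.857). Markers of myelinating Schwann cells, the sheath cells of peripheral nerve, which also make Mbp, Mag and Gjb1, were uneven in SN at 4 weeks. None of the 3 examined (Pmp22, Prx and Egr2) was called in HET or KO against WT, and their mean log2(CPM + 1) was 2.01 to 2.44 in WT, 2.14 to 4.41 in HET and 2.06 to 3.00 in KO. Over both ages and all genotypes the median of this mean was 3.26 in STR, 2.83 in PFC and 2.45 in SSC. It was 2.36 in HP, 2.19 in SN and 2.01 in TH. The highest value in a single library was 4.41 in SN, followed by maxima of 3.93 in STR and 3.37 in PFC. The part of Schwann cell RNA in the HET and KO values of SN was not tested.

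Whether the KO difference changed between the ages was tested in each region, and 0 of 186 pairs passed (background 0%), with 4 at an unadjusted p under 0.05 and a smallest adjusted p of 0.636. The medians of this change were 0.37 in PFC, 0.01 in SSC, 0.02 in HP, 0.17 in STR, 0.12 in TH and 0.07 in SN. They became 0.13 in PFC without KO 2 at 12 weeks, 0.12 in SSC without KO 163 at 4 weeks and -0.16 in SN without the libraries that stand apart. The precursor genes Pdgfra and Cspg4 had median differences over their 12 pairs of -0.03 in KO and -0.03 in HET at 4 weeks, and -0.02 in both at 12 weeks. Of the further lineage genes, 0 of 125 mature pairs passed in either genotype at either age. Of the 66 precursor pairs a single one passed, Sox8, a relative of Sox10, which was higher in STR of KO at 12 weeks by 0.37 on the log2 scale (SE 0.10, adjusted p = 0.0415). In that comparison 4.42% of all genes passed.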

How the data were processed

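Bulk RNA was measured in 186 libraries. Per the labels' protocols, brains were frozen and dissected in a cryostat, and libraries were made with the stranded TruSeq mRNA kit from column-purified RNA. The deposited values are expected counts per gene symbol, made with Salmon on mm10 per the submitters' processing notes. No source used here gives the Salmon version, the annotation or the strand setting, so overlapping and antisense genes are uncertain. Of the values above 0, 77.9% were not whole, and 0 columns lacked a sample. Libraries were grouped by the labels alone.

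The expected counts were rounded and fitted with edgeR 4.0.16 in R 4.3.3 (TMM, filterByExpr, quasi-likelihood test). P-values were adjusted over every gene tested in a comparison (Benjamini-Hochberg), with a threshold of 0.05 for a call. Genotypes were compared per region and age, ages per region, and regions per age in WT. CPM share a TMM scale over all libraries, and a library's mean log2 value uses a pseudocount of 1. The SE is the log2 fold change divided by the square root of F. All adjusted p-values are edgeR's unless DESeq2 1.42.0 is named. The parts of depth and of the spread between libraries in the precision of weak genes, such as Nkx6-2 in cortex, were not tested.

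Every gene is named. Library values and full statistics are given for genes called by genotype, for the 2 largest rises and falls with age in each region, for the largest difference of each region and for the most abundant gene of each role. The 31 genes, the further lists and the libraries that stand apart were chosen with earlier results of these data known. Alternatives were other size factors, no low-count filter, DESeq2, a fit of 2 genotypes, a replicate block, a library-subset term, and fits without the libraries that stand apart or without each library. The age contrast in HET, in KO and without the libraries of few whole numbers was added after seeing the data. A marker gene is not reported here. Gene positions are from GENCODE M21 on GRCm38, 1-based. In data simulated for KO against WT in STR at 12 weeks (15481 genes), 54% of genes changed by 0.5 on the log2 scale and 84.7% of those changed by 1 were called. For PFC at 4 weeks (15851 genes) the shares were 50% and 81%. The changed genes were drawn at random from all genes in the fit, with counts simulated gene by gene. For PFC the simulation gave 136 calls where the data gave 2 in KO, and more calls ease the adjusted p threshold. The SE of the 31 genes in that comparison reached 0.52, so these shares need not hold for them.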

Additional observations from a re-analysis of the deposited data

Results flagged for a closer look

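The age change differed between regions for 2 of the 31 genes by a test of the difference itself, both in SN, where 8.22% of all genes passed. This share of the 31 genes does not exceed that over all genes. In SN the log2 change of Opalin from 4 to 12 weeks exceeded the mean of the other regions by -0.90, and that of Olig1 by -0.64. Both calls were lost without SN WT 92, where the values were -0.38 and -0.31. Leaving out any single library ended the call of Opalin in 4 of 63 cases and that of Olig1 in 32. Over the 36 groups, 0 had a library whose mean level of the 31 genes lay far from the rest of its group. Gene by gene, 67 of 1116 groups (6.0%) held such a library, where chance gives about 1 in 20.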

How the results depend on the processing

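Summed over the 6 regions, the counts of genes called in the region, age and genotype comparisons stayed within 1.5 times of the reported ones under other size factors, without a low-count filter, with DESeq2 and without the libraries that stand apart, except in the test of region differences in the age change, where 2 calls became 1 without the filter and 7 with DESeq2. Of the counts of single regions 10 moved further than that and 254 did not. Leaving out each library gave 0 to 9 calls there, 0 to 1 in KO against WT at 4 weeks, and 0 in the other genotype comparisons, where the reported count was 0. It gave 110 to 122 calls for the WT age change (reported 117), 148 to 158 for regions at 4 weeks (152) and 156 to 166 at 12 weeks (164). The age contrast gave 107 calls in HET, 108 in KO and 112 without the libraries of few whole numbers. Nothing in the labels says that same-numbered libraries share a mouse. Of their pairs, 23 of 60 between genotypes at 12 weeks, 21 of 76 between WT regions at 4 weeks and 21 of 75 at 12 weeks correlated above 0.1, so the numbers were not taken as pairing the libraries. The numbers best matched their own in 26, 25 and 42 pairs, where about 1 in 5 would by chance. This is a hint of pairing from the data, clearest between WT regions at 12 weeks. Pairs between genotypes cannot come from the same mouse, whatever else they share. With the replicate block, regions gave 151 calls at 4 weeks and 164 at 12 weeks and genotypes at 12 weeks 0, and it ended 1 named call, Pdgfra in HP at 12 weeks (adjusted p = 0.0568, edgeR). No paired analysis was possible for genotypes at 4 weeks because the labels' numbers are not shared between them. At unadjusted p under 0.05, 4.84% of the pairs in KO at 4 weeks, 7.53% in HET at 4 weeks, 5.91% in KO at 12 weeks and 1.08% in HET at 12 weeks passed, against 10.6%, 7.37%, 6.83% and 3.42% of all tests. Without the libraries that stand apart, Gpr37 in SSC (0.60, adjusted p = 0.0384) and Enpp2 in HP (1.22, adjusted p = 0.0196) were called for a region difference in the age change by edgeR, and Opalin and Olig1 in SN were not. The causes of these moves were not tested. Other size factors moved the median log2 change of all genes by at most 0.027.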

Other observations

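Among genes of the lineage outside the 31, region differences in the WT age change were called for Bmp4, a signal of early oligodendrocytes that acts on precursors. Its log2 change from 4 to 12 weeks was below the mean of the other regions by -0.98 in SN and -0.84 in TH, and above it by 1.14 in PFC. For Gsn the values were -1.21 in SN and 1.43 in PFC, and for Gpr17 -0.44 in SN and 0.54 in PFC. C1ql1 and Sox6, both expressed by precursors, were above the other regions in SN by 0.87 and 0.61. These SN values include SN WT 92. Without it the value of Gsn in SN was -0.60 and not called (adjusted p = 0.0912), while those of Bmp4, Gpr17, C1ql1 and Sox6 were still called. Without the libraries that stand apart the calls of Bmp4 in TH and Gpr17 in SN were lost too (adjusted p = 0.285 and 0.0613).

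Neu4, Zfp488 and Sox8, genes of maturing precursors, were each lower at 12 weeks in all 6 regions of WT mice. Neu4 changed by -0.54 in PFC to -0.80 in HP, and Zfp488 by -0.81 in STR to -1.08 in HP. Sox8 changed by -0.36 in STR to -0.85 in SN. In PFC Neu4 was 11.1, 10.3, 9.51, 8.99 and 6.52 CPM at 4 weeks and 6.98, 6.95, 6.47, 5.94 and 5.57 CPM at 12 weeks, with 1 library of 4 weeks inside the range of 12 weeks.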
